A study of Homo sapiens with 6 samples.

Results

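The 44 genes whose symbols name a collagen chain (COL, the type, A and the chain number) were examined among the 26372 genes of the deposited table. Every gene with such a symbol was taken whatever its level, although earlier results of these data were known when the members were chosen. Antisense transcripts, pseudogenes and collagen-like genes with other symbols were left out. The RNA came from the human neuroblastoma cell line BE(2)-M17, with 3 libraries from GOMAFU knockdown cells and 3 from control cells, numbered 2, 3 and 4 in each group. GOMAFU, whose symbol in the table is MIAT, is a long RNA that encodes no protein. Per the labels' protocols, polyadenylated RNA was sequenced with paired reads of 150 bases, and small RNA was delivered to cells of the project by lipofection, at 100 pmol. The labels name neither the sequence used against GOMAFU nor what the control cells received, and all 6 libraries come from the 1 cell line. Nothing says that the replicates were separate cultures, so the p-values speak only to how far these samples varied, and that variation may be technical.

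Collagens are secreted proteins in which 3 chains wind into a triple helix, either 3 copies of 1 chain or a set of different chains. Fibrillar collagens such as types I, III and V form the fibres of connective tissue, type IV forms the sheet of basement membranes, type VI forms beaded filaments around cells, and fibril-associated collagens decorate fibres. Chains of most mixed trimers are made from separate genes, so the genes of one type are usually read together. In neuroblastoma tumours, collagen fibres are mainly known as a product of Schwann cells and fibroblasts of the stroma.

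MIAT, which checks the labels, stood at 1.27, 1.32 and 3.21 FPKM in knockdown replicates 2, 3 and 4, against 5.38, 5.96 and 8.57 FPKM in control replicates 2, 3 and 4 (FPKM is a fragment count scaled by transcript length and library size). All knockdown values lay below all controls, although the adjusted p was 0.9998 by limma, over the 12164 genes averaging 1 FPKM or more. Knockdown replicate 4 stood apart: all 14 interferon response genes of the marker list were highest in it, and their summed level was 450.1, 74.6 and 8828 FPKM in the knockdown libraries and 44.7, 45.0 and 39.0 FPKM in the controls. Of the adrenergic neuroblastoma markers 9 of 11 had a mean of at least 1 FPKM, MYCN, PHOX2A and HAND2 among them. Of the mesenchymal neuroblastoma markers 5 of 8 passed, VIM and TWIST1 the highest of them, and PRRX1 was at 0 throughout. The summed mesenchymal levels were 359.2 to 462.9 FPKM in knockdown and 382.3 to 467.4 FPKM in control libraries. Of the fibroblast markers 6 of 9 passed, DCN and THY1 the highest of them, and POSTN was at 0 throughout. DCN averaged 69.0 FPKM in knockdown and 67.2 FPKM in control libraries, THY1 57.2 and 56.1 FPKM, and LUM 9.55 and 7.22 FPKM. The summed fibroblast levels were 151.4 to 166.4 FPKM in knockdown and 133.2 to 163.7 FPKM in control libraries. No marker of endothelial cells (0 of 5) or of Schwann cells (0 of 5) passed, and their summed levels stayed at or below 0.0985 and 2.49 FPKM in every library.

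These cells carried a short collagen repertoire. Only 8 of the 44 genes reached a mean of 1 FPKM over the 6 libraries: COL4A2, COL6A2, COL6A1, COL22A1, COL4A1, COL9A2, COL9A3 and COL18A1. The other 36 stayed below it, 18 of them with a value above 0 in every library, 11 at 0 in some libraries and 7 at 0 in all 6 (COL1A2, COL4A3, COL4A5, COL5A3, COL15A1, COL17A1 and COL25A1). Of all 26372 genes, 12164 reached a mean of 1 FPKM and 18663 had a value above 0 in at least 1 library. Of 152 ribosomal protein, proteasome, polymerase, initiation and splicing factor symbols only 2, PSMA8 and RPL10L, were at 0 throughout. The 8 genes made up 96.7% to 97.6% of all collagen FPKM in a library, and the chains of types IV, VI and XXII alone 91.0% to 93.1%.

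**Figure D1:**
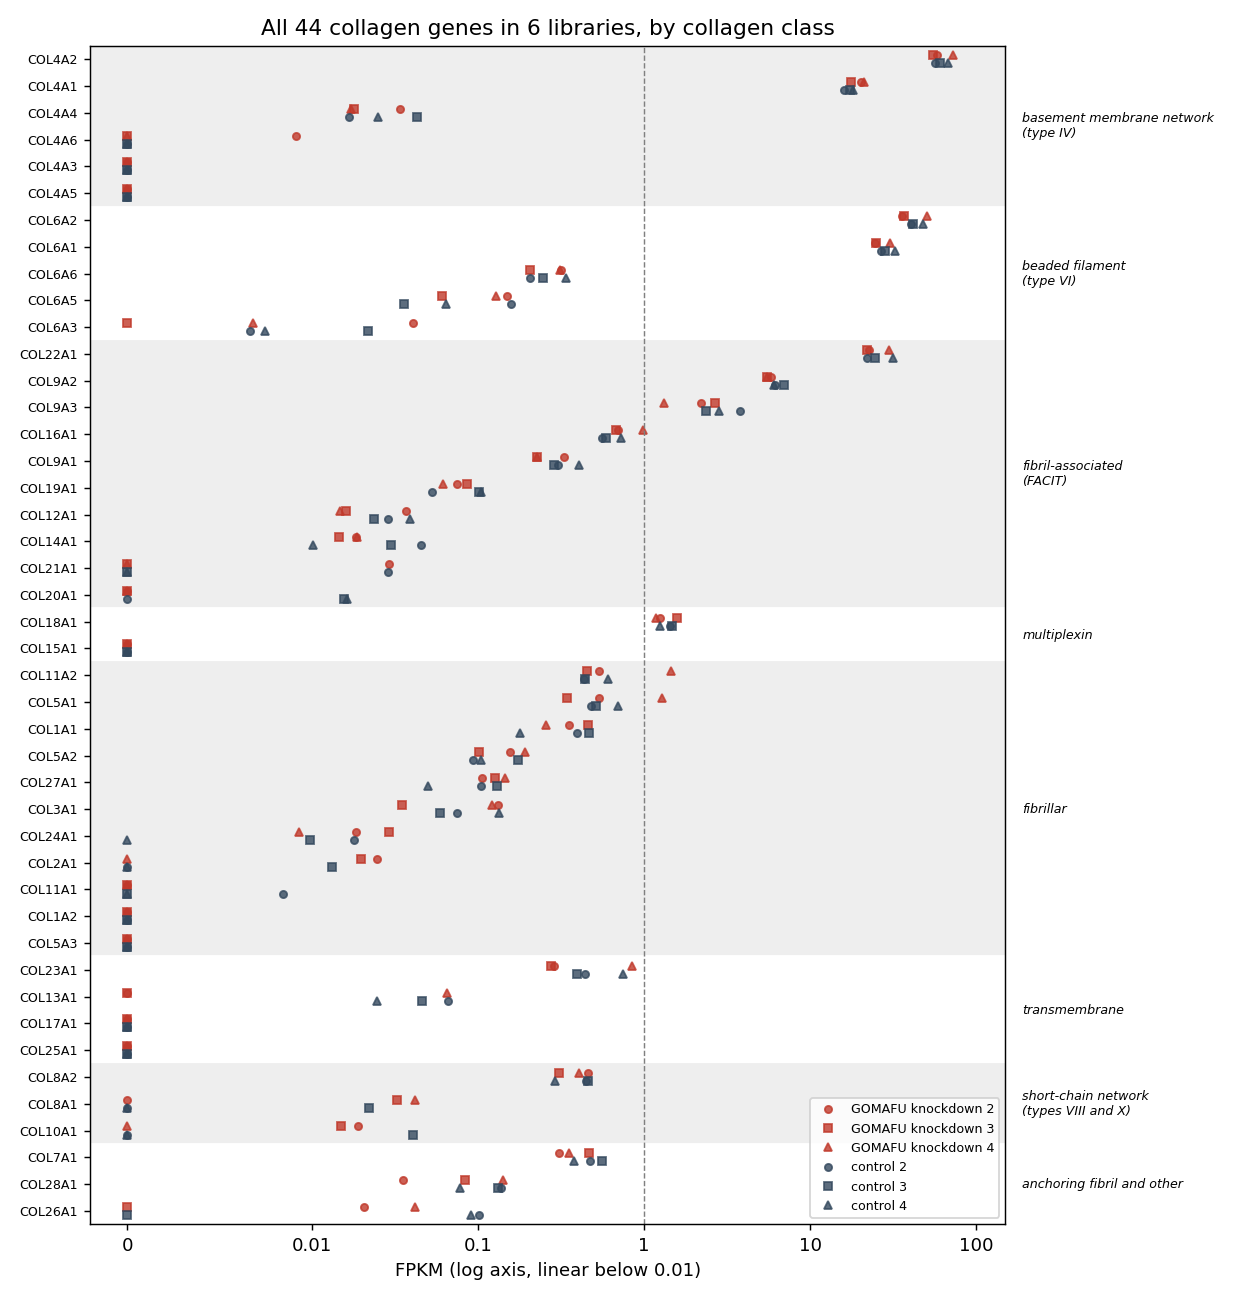
FPKM of the 44 collagen genes (log axis, linear below 0.01) in each library, grouped by class, with GOMAFU knockdown in red above control in blue on each line and the marker shape giving the replicate number. The dashed line marks 1 FPKM: 8 genes lie to its right, and the fibrillar, transmembrane, short-chain and anchoring classes lie almost wholly to its left.

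Promoter sequences bear on 2 of the most abundant chains, because COL4A1 and COL4A2 are read from one shared promoter in opposite directions. COL4A1 occupies chromosome 13 from 110148963 to 110307233 on the minus strand, and COL4A2 from 110305812 to 110513209 on the plus strand (GENCODE release 29, GRCh38). The RefSeq start sites of the pair were 127 bases apart (GRCh38.p14), and the windows from 250 bases before to 50 bases after each start shared 226 bases. The pair COL4A3 and COL4A4, on chromosome 2, is arranged the same way, with 419 bases between the starts and 82 shared bases, but COL4A3 was listed at 0 in all libraries and COL4A4 stood at 0.0168 to 0.0429 FPKM. A further head-to-head pair of type IV genes, COL4A5 and COL4A6 on the X chromosome, was also at or near 0 and is not printed. The windows of the pairs on chromosomes 13 and 2 are printed to set an expressed and a nearly silent pair side by side. Those of COL6A2 and COL9A2 add the expressed genes of types VI and IX for which a window was matched. All are from RefSeq (GRCh38.p14), written 5′ to 3′ on the strand of the gene, and capitals mark 3 kinds of promoter motif on either strand. These are the GC box, searched as GGGCGG, the CCAAT box, searched by its 5 letters, and the TATA box, searched as TATAAA.
COL4A1 (chr13:110307108-110307407, minus strand): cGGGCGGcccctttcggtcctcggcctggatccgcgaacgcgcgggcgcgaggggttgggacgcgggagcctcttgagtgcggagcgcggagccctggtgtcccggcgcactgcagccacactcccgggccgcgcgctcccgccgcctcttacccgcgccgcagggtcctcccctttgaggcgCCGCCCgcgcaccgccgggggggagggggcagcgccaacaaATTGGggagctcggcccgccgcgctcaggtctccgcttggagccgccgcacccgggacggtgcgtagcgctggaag
COL4A2 (chr13:110307034-110307333, plus strand): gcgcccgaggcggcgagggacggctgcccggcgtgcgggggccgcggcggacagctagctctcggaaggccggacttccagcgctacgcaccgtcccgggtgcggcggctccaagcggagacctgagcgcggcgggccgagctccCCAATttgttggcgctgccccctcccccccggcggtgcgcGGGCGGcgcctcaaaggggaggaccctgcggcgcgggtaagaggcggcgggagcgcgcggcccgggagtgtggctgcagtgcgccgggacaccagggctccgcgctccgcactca
COL4A3 (chr2:227164374-227164673, plus strand): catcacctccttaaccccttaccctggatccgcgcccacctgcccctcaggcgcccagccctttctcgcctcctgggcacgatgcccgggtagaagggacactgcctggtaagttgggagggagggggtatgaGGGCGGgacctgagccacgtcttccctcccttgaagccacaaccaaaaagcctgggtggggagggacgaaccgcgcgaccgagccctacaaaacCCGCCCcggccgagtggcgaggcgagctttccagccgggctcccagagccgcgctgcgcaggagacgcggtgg
COL4A4 (chr2:227164156-227164455, minus strand): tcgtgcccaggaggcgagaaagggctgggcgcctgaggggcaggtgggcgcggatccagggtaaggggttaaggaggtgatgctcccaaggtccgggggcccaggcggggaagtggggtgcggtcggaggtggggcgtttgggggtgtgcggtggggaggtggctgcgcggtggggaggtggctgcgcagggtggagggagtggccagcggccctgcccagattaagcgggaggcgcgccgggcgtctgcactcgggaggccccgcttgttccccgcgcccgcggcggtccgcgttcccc
COL6A2 (chr21:46097862-46098161, plus strand): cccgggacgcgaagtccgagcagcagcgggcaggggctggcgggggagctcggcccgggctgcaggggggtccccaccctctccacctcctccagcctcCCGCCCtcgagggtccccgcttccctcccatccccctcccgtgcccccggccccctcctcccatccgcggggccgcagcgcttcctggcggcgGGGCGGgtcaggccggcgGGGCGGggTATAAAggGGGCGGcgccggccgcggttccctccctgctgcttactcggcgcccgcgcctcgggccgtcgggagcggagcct
COL9A2 (chr1:40317237-40317536, minus strand): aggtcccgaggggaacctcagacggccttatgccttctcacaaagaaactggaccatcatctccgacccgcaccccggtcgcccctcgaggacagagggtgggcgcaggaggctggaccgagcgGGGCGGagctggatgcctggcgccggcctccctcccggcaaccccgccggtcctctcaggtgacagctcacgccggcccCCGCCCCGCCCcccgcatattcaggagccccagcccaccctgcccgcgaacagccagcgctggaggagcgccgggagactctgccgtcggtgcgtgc

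In these windows the stretch common to COL4A1 and COL4A2 held 1 GC box and 1 CCAAT box, and COL4A1 had another GC box upstream of it. The stretch common to COL4A3 and COL4A4 held neither motif, and the 2 GC boxes of the COL4A3 window lay outside it. The presence of a CCAAT box did not follow expression over the type IV pairs. In the unprinted pair the COL4A5 window held 2 CCAAT boxes and 0 GC boxes. Of the COL4A6 windows 1 held 3 CCAAT boxes and 0 GC boxes, and the other 0 CCAAT boxes and 1 GC box. COL6A2 had 4 GC boxes and 1 TATA box, and COL9A2 had 3 GC boxes. In the windows of COL4A1, COL4A2, COL6A2 and COL9A2 guanine and cytosine made up 71.7% to 79.3% of bases, against 67.7% and 74.0% for COL4A3 and COL4A4. Motif matches overlapped in the COL9A2 window alone of the 6 printed, by 1 base.

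RefSeq windows were matched for 32 of the 44 genes, 44 windows in all, and for 5 of the 8 expressed ones (COL4A1, COL4A2, COL6A2, COL9A2 and COL18A1, the last with 2 start sites). In the 6 windows of expressed collagens guanine and cytosine made up 66.3% to 86.7% of bases. In the 38 windows of the others they made up 32.3% to 82%, with a median of 61.3%, against a median of 58.7% over all windows. A GC box occurred in 6 of the 6 windows of expressed collagens and in 18 of the 38 windows of the others, against 45.0% of 35116 windows over all genes. The part of base composition in this count was not tested. A TATA box occurred in 2 of 6 and 6 of 38 windows, against 11.5% of all. A CCAAT box occurred in 2 of 6 and 12 of 38, against 34.6% of all. An interferon-stimulated response element (GAAA, any 2 bases, GAAA, on either strand) occurred in 1 collagen window, that of COL17A1, which was listed at 0, and in 3.57% of all windows. Windows of paired genes overlap, genes such as COL11A2, COL10A1 and COL21A1 have several windows each, and those of COL5A1 nearly coincide. These are therefore counts of windows rather than of genes, and they are not independent.

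No collagen gene passed the threshold between GOMAFU knockdown and control. The threshold was an adjusted p under 0.05 by limma on log2(FPKM + 1), with p-values adjusted over all 12164 genes, and it was passed by 0% of these genes in either direction. Of the 8 collagen genes that could be tested, 0 also had an unadjusted p under 0.05, against 0.97% of all genes higher and 1.19% lower. Fitted differences, knockdown minus control, ran from -0.39 for COL9A3 to 0.19 for COL4A1, with a median of -0.08 for the 8 genes and -0.0081 for all genes tested. Of the 8, 7 were below 0, against 53.3% of all genes tested, and COL4A2 turned to 0.019 under quantile normalization. Every adjusted p was 0.9998, and the unadjusted p ran from 0.0861 to 0.967.

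**Figure D2:**
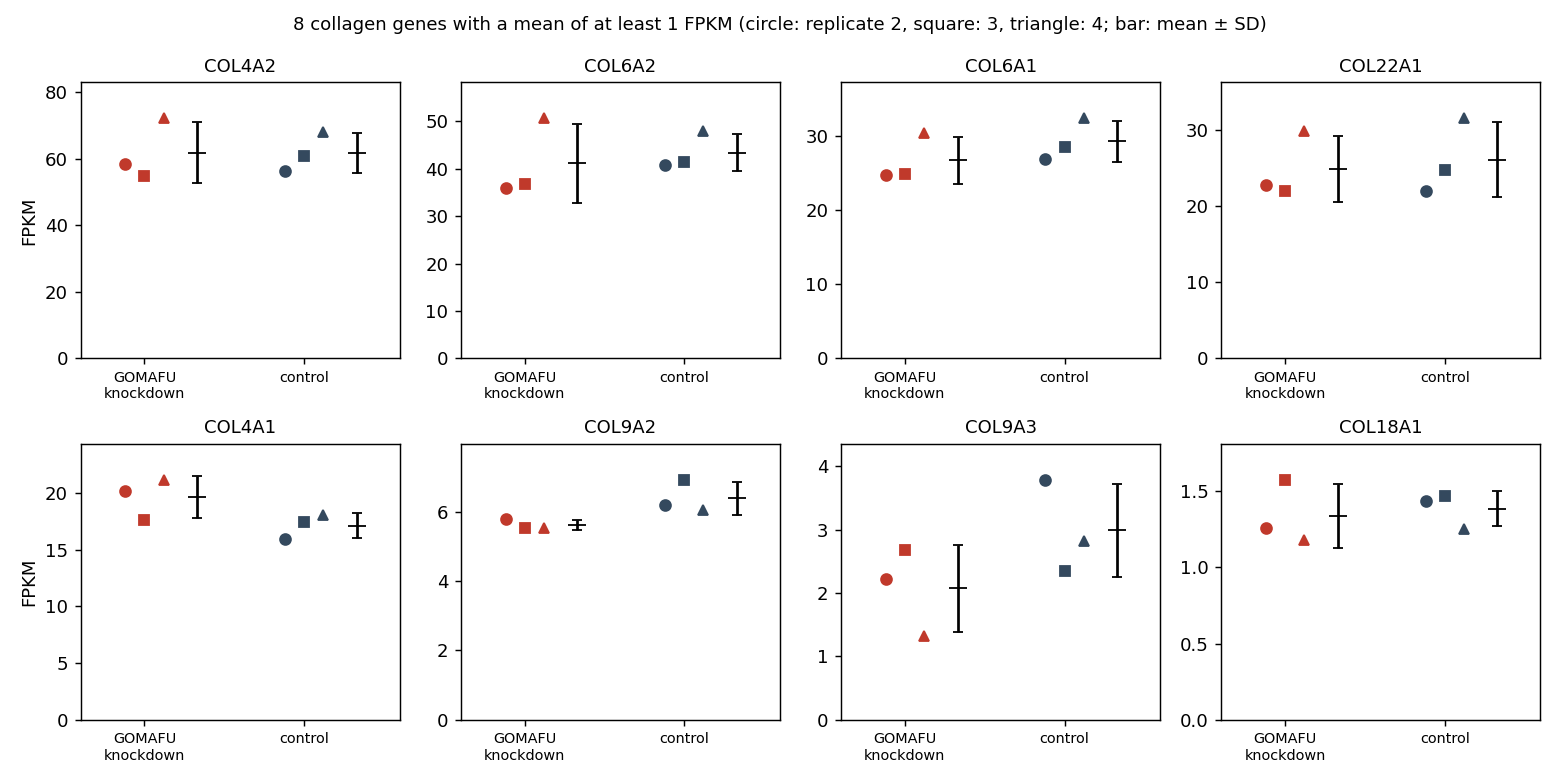
FPKM of the 8 expressed collagen genes in each library (circle, square and triangle for replicates 2, 3 and 4), GOMAFU knockdown on the left and control on the right of each panel, with bars for mean ± SD (n = 3). COL9A2 is the 1 gene with all knockdown values below all controls, and in the top row replicate 4 is the highest library of each group.

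The basement membrane chain gene COL4A2 had the highest level of all collagens, while its partner COL4A1 ranked below COL6A2, COL6A1 and COL22A1 in all 6 libraries. COL4A2, which encodes the second chain of the ubiquitous type IV trimer, stood at 58.2, 54.8 and 72.1 FPKM in knockdown replicates 2, 3 and 4, against 56.2, 60.8 and 68.1 FPKM in control replicates 2, 3 and 4. The groups covered the same range, with replicate 4 the highest of each. The fitted log2 difference was -0.0054 (SE 0.12, 95% interval -0.30 to 0.29), and its mean level in the controls ranked 1381 of 26372 genes.

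COL4A1, which encodes the first chain of the same trimer, stood at 20.1, 17.6 and 21.2 FPKM in the knockdown libraries, against 15.9, 17.4 and 18.0 FPKM in the controls. Knockdown replicates 2 and 4 lay above all controls, while knockdown replicate 3 lay between them. The fitted log2 difference was 0.19 (SE 0.09, 95% interval -0.03 to 0.41; unadjusted p = 0.0861 and adjusted p = 0.9998 by limma). It was the only one of the 8 above 0.

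The ratio of COL4A2 to COL4A1 within a library, which does not depend on how libraries are scaled, was 2.89, 3.11 and 3.41 in the knockdown libraries, against 3.53, 3.50 and 3.78 in the controls. All 3 knockdown ratios lay below all 3 control ratios, with means of 3.14 ± 0.26 and 3.60 ± 0.15 (SD, n = 3 each). This ratio was looked at after the values of both genes had been seen, so it carries no test. The ratios of COL6A2 to COL6A1, COL9A2 to COL9A3 and COL4A2 to COL6A2 overlapped between the groups. How often the ratios of other gene pairs separate was not computed. The remaining type IV genes were near or at 0: COL4A4 as above, COL4A6 at 0.0092 FPKM in knockdown replicate 2 and 0 elsewhere, and COL4A3 and COL4A5 at 0 throughout. An antisense gene, COL4A2-AS1, overlaps exons of COL4A2 and stood at 0.197, 0.313 and 0 FPKM in the knockdown libraries, against 0, 0.428 and 0.660 FPKM in the controls.

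Type VI collagen was represented by 2 of its chains. COL6A2 stood at 36.0, 36.7 and 50.6 FPKM in knockdown replicates 2, 3 and 4, against 40.8, 41.5 and 48.0 FPKM in the controls. Knockdown replicates 2 and 3 lay below all controls and knockdown replicate 4 above them, so the groups overlapped (log2 difference -0.09, SE 0.14). COL6A1 stood at 24.8, 24.9 and 30.4 FPKM in the knockdown libraries, against 26.9, 28.5 and 32.3 FPKM in the controls. The same 2 knockdown libraries lay below all controls, while replicate 4 lay among them (log2 difference -0.13, SE 0.11).

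Without both libraries numbered 4 the 2 remaining knockdown values lay below the 2 remaining controls for both genes, with log2 differences of -0.17 for COL6A2 (unadjusted p = 0.0171 and adjusted p = 0.714 by limma) and -0.15 for COL6A1 (unadjusted p = 0.0425 and adjusted p = 0.771). In that setting 19.4% of all genes tested were also lower without overlap, and 6.30% had an unadjusted p under 0.05 by limma. With 1 library left out, the difference of COL6A2 ran from -0.25 without knockdown replicate 4 to -0.0055 without knockdown replicate 2, and it was -0.02 without knockdown replicate 3 and also without control replicate 4. That of COL6A1 ran from -0.22 without knockdown replicate 4 to -0.058 without control replicate 4. The ratio of COL6A2 to COL6A1 was 1.45, 1.48 and 1.67 in the knockdown libraries and 1.52, 1.46 and 1.48 in the controls, and the groups overlapped. COL6A1 (45981737 to 46005050) and COL6A2 (46098097 to 46132849) lie beside each other on the plus strand of chromosome 21.

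The third chain that completes the classical type VI trimer was almost missing. COL6A3 stood at 0.0406, 0 and 0.0068 FPKM in knockdown replicates 2, 3 and 4, against 0.0066, 0.0218 and 0.0075 FPKM in the controls. Its level was at most 0.164% of that of COL6A1 in any library. COL6A6 and COL6A5, which encode chains that can take the place of the COL6A3 chain, were low as well, at 0.205 to 0.340 FPKM and 0.0358 to 0.159 FPKM over the 6 libraries, with overlapping groups.

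Among fibril-associated collagens, COL22A1 stood far above the rest. This gene encodes a chain that forms trimers with itself and is known from tissue junctions such as that of muscle and tendon. It stood at 22.8, 22.0 and 29.8 FPKM in knockdown replicates 2, 3 and 4, against 22.0, 24.7 and 31.5 FPKM in the controls. Replicate 4 was again the highest of each group and the groups overlapped (log2 difference -0.07, SE 0.16, 95% interval -0.45 to 0.32). Its position is the minus strand of chromosome 8, from 138588235 to 138914006.

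Of the 3 chains of type IX collagen, a component of cartilage fibrils, 2 were expressed. COL9A2 stood at 5.80, 5.54 and 5.52 FPKM in the knockdown libraries, against 6.18, 6.92 and 6.04 FPKM in the controls. All 3 knockdown values lay below all 3 controls, a pattern found in 1 of the 8 collagen genes and 4.35% of all genes in this direction. The means were 5.62 ± 0.15 and 6.38 ± 0.47 FPKM (SD, n = 3 each) and the log2 difference -0.16 (SE 0.08, 95% interval -0.35 to 0.04; unadjusted p = 0.105 and adjusted p = 0.9998 by limma).

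COL9A3 stood at 2.21, 2.67 and 1.33 FPKM in knockdown replicates 2, 3 and 4, against 3.78, 2.35 and 2.82 FPKM in the controls. Knockdown replicates 2 and 4 lay below all controls, and knockdown replicate 3 lay among them. The log2 difference of -0.39 (SE 0.21, 95% interval -0.88 to 0.11; unadjusted p = 0.107 by limma) was the furthest from 0 of the 8 in the fit on all libraries. Without knockdown replicate 4 it was -0.20, nearer to 0 than COL6A2 (-0.25) and COL6A1 (-0.22), and without control replicate 2 it was -0.25. With library weights it was -0.10. Its exons overlap those of TCFL5 on the opposite strand, which stood at 11.6, 12.1 and 9.06 FPKM in the knockdown libraries and 11.6, 9.51 and 9.52 FPKM in the controls. Strand handling is not stated in the labels, so reads of the overlapping part could have gone to either gene.

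COL9A1, the remaining chain of type IX, ran from 0.228 to 0.329 FPKM in knockdown and from 0.287 to 0.409 FPKM in control libraries, which was 4.11% to 6.77% of the level of COL9A2 in the same library. The ratio of COL9A2 to COL9A3 was 2.62, 2.08 and 4.16 in the knockdown libraries and 1.63, 2.94 and 2.14 in the controls, with overlap. COL16A1, the highest gene below the filter, stood at 0.702, 0.675 and 0.992 FPKM in the knockdown libraries, against 0.561, 0.591 and 0.727 FPKM in the controls. The other fibril-associated genes, COL12A1, COL14A1, COL19A1, COL20A1 and COL21A1, stayed at or below 0.105 FPKM.

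**Figure D3:**
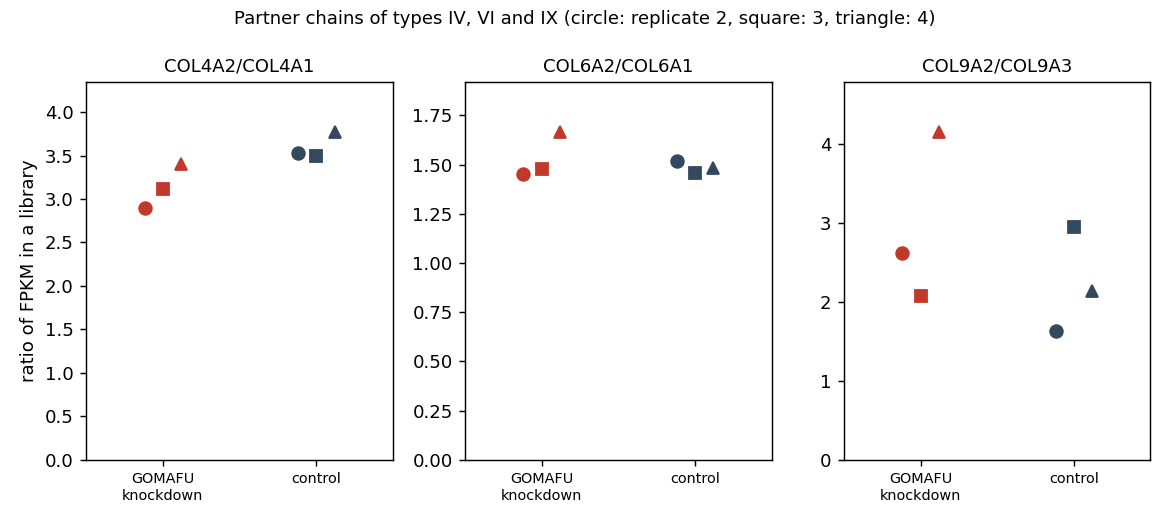
Ratio of FPKM between partner chains within each library, GOMAFU knockdown left of control (circle, square and triangle for replicates 2, 3 and 4). The COL4A2/COL4A1 ratio is 2.89 to 3.41 in knockdown and 3.50 to 3.78 in control libraries, while the other 2 ratios overlap between the groups.

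COL18A1, whose chain is a basement membrane proteoglycan and the source of the fragment endostatin, was just above the filter. It stood at 1.26, 1.58 and 1.18 FPKM in the knockdown libraries, against 1.44, 1.47 and 1.25 FPKM in the controls, and the groups overlapped (log2 difference -0.03, SE 0.13). Its exons overlap those of SLC19A1, a folate transporter on the opposite strand with 15.6 to 21.1 FPKM in knockdown and 19.6 to 22.5 FPKM in control libraries, so its low values are uncertain for the same reason as those of COL9A3. COL15A1, the other multiplexin, was listed at 0 in all libraries.

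The fibrillar class held no gene that passed the filter. COL1A1, which with COL1A2 makes type I collagen, stood at 0.355, 0.458 and 0.256 FPKM in the knockdown libraries, against 0.398, 0.468 and 0.179 FPKM in the controls, and COL1A2 was listed at 0 in all 6. COL1A1 was thus at most 0.835% of COL4A2 in any library, and type III collagen (COL3A1) at most 0.133 FPKM. COL11A2, of the minor fibrillar type XI, stood at 0.536, 0.456 and 1.45 FPKM in knockdown replicates 2, 3 and 4, against 0.436, 0.444 and 0.608 FPKM in the controls. COL5A1, which encodes the main chain of type V collagen, stood at 0.535, 0.345 and 1.29 FPKM in the knockdown libraries, against 0.483, 0.513 and 0.699 FPKM in the controls.

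In both COL11A2 and COL5A1 knockdown replicate 4 lay far above the other 5 libraries, and replicate 4 was also the highest control. The other fibrillar genes, COL2A1, COL5A2, COL5A3, COL11A1, COL24A1 and COL27A1, stayed at or below 0.192 FPKM. COL11A2, COL5A1 and COL16A1 are the 3 genes nearest below the filter, with means of 0.654, 0.643 and 0.708 FPKM over the 6 libraries, and COL18A1, with 1.36 FPKM, is the nearest above it.

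Transmembrane, short-chain and anchoring collagens were low. COL23A1, a transmembrane chain, stood at 0.286, 0.275 and 0.848 FPKM in knockdown replicates 2, 3 and 4, against 0.441, 0.396 and 0.746 FPKM in the controls, so both libraries numbered 4 were high. COL13A1 was at or below 0.0659 FPKM, and COL17A1 and COL25A1 were listed at 0. COL8A2, a chain of the hexagonal network under corneal endothelium, ran from 0.308 to 0.459 FPKM in knockdown and from 0.292 to 0.462 FPKM in control libraries. COL7A1, the anchoring fibril chain of skin, ran from 0.310 to 0.470 and from 0.378 to 0.561 FPKM in those groups. COL8A1, COL10A1, COL26A1 and COL28A1 stayed at or below 0.143 FPKM.

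Of the 36 genes below the filter, 7 were at 0 throughout and could not separate the groups. Of the other 29, 0 had all knockdown values above all controls and 0 had all below them, against 4.03% and 2.54% of the 6499 genes below the filter with any value above 0. The order of the 8 expressed genes, COL4A2, COL6A2, COL6A1, COL22A1, COL4A1, COL9A2, COL9A3 and COL18A1 from high to low, was the same in all 6 libraries. The ranges over the libraries overlapped between neighbours for COL6A1 with COL22A1 and for COL9A3 with COL18A1, and for no other neighbours in that order.

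Each of the 3 knockdown libraries was also set against the controls by itself, beside the shares over all genes tested. In knockdown replicate 2, 4 of the 8 expressed genes lay below all controls (COL6A1, COL6A2, COL9A2 and COL9A3), against 25.9% of all genes tested, and 1 above them (COL4A1), against 23.1%. In knockdown replicate 3, 5 lay below (COL4A2, COL6A1, COL6A2, COL9A2 and COL22A1), against 21.2%, and 1 above (COL18A1), against 22.7%. In knockdown replicate 4, 3 lay below (COL9A2, COL9A3 and COL18A1), against 35.9%, and 3 above (COL4A1, COL4A2 and COL6A2), against 30.7%. For 8 genes these counts of knockdown replicate 4 were near the shares over all genes.

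On the log2(FPKM + 1) scale, the median distance of the 8 genes from their control mean was -0.15 in knockdown replicate 2, -0.17 in replicate 3 and 0.13 in replicate 4. Over all genes tested it was -0.0054, 0.0017 and -0.01 in those libraries. COL9A2 was the 1 gene below all controls in all 3 knockdown libraries. Replicate 4 was the highest library of both groups for 5 of the 8 genes (COL4A1, COL4A2, COL6A1, COL6A2 and COL22A1), against 26.1% of all genes tested, and the lowest of both for 2 (COL9A2 and COL18A1), against 30.1%. Control replicate 4 had the highest control values of those 5 genes with a summed interferon response level of 39.0 FPKM, the lowest of the 6 libraries. A link between the interferon response and these collagen levels was not tested.

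**Figure D4:**
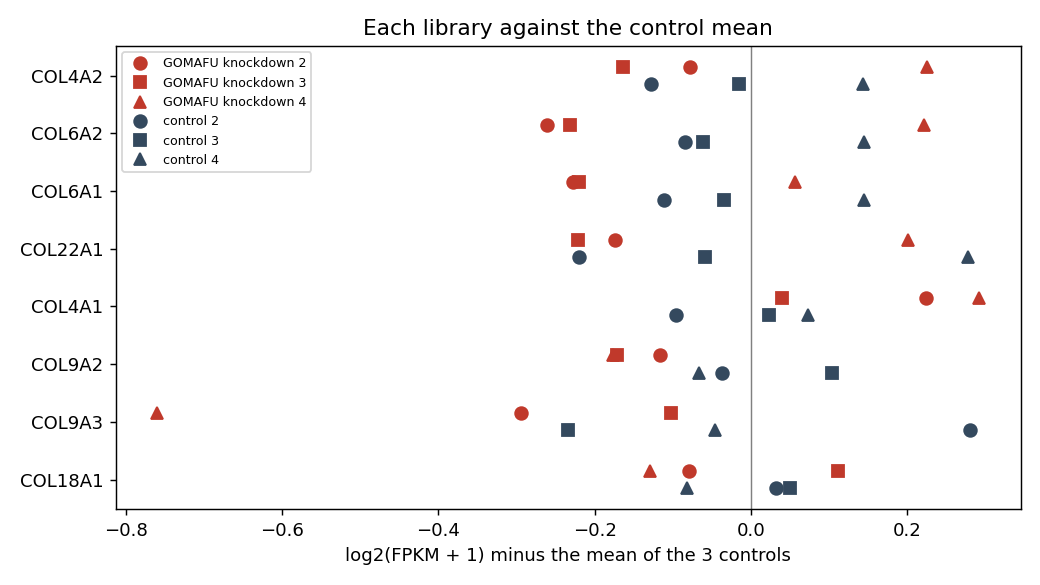
log2(FPKM + 1) of each library minus the mean of the 3 controls for the 8 expressed collagen genes, GOMAFU knockdown in red above control in blue. Knockdown replicates 2 and 3 (circle and square) lie left of the controls for COL6A1, COL6A2 and COL9A2, and both libraries numbered 4 (triangles) lie right of 0 for the first 5 genes.

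Summed over all 44 genes, collagen FPKM came to 175.9, 169.9 and 219.2 for the knockdown libraries, against 178.0, 188.5 and 213.2 in the controls. Both libraries numbered 4 were the highest of their group. The means were 188.3 ± 26.9 and 193.2 ± 18.1 FPKM (SD, n = 3 each), a difference of -4.90 FPKM that was smaller than either spread. In bulk RNA, a change in the number of cells that make a collagen and a change in its RNA per cell cannot be told apart.

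The genes that modify, fold, secrete, process, crosslink, bind and degrade collagen were counted beside the chains, in 7 lists with 81 genes. Of the 53 with a mean of at least 1 FPKM, 0 passed the threshold in either direction by limma and 0 had an unadjusted p under 0.05. Fitted differences were above 0 for 26 and below 0 for 27. SEC24D and AGRN were higher in every knockdown library than in any control, against 4.01% of all genes tested, and ADAMTS14 was lower, against 4.35%. AGRN entered the 53 genes, and the 26 above 0, only through knockdown replicate 4. Its separation is therefore a description and adds nothing to these counts.

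The most abundant enzymes of the secretory pathway had more FPKM than any chain. Among 13 tested prolyl and lysyl modification genes 5 differences were above 0 and 8 below, and their median was -0.03. PPIB, a proline isomerase of the endoplasmic reticulum, averaged 381.7 ± 50.2 FPKM in knockdown and 393.4 ± 52.5 FPKM in control libraries, and P4HB, a subunit of prolyl 4-hydroxylase, 129.7 ± 13.2 and 133.6 ± 11.0 FPKM (SD, n = 3 each). COLGALT2, a collagen galactosyltransferase, had the smallest p of the list (unadjusted p = 0.282 by limma) and averaged 4.90 ± 0.26 and 4.47 ± 0.41 FPKM in those groups.

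Among 9 tested chaperones and secretion factors the median was -0.02, with 4 above 0 and 5 below. The chaperone FKBP10 averaged 115.7 ± 9.70 FPKM in knockdown and 125.1 ± 6.88 FPKM in control libraries. SEC24D, a coat protein of the vesicles that carry procollagen, stood at 29.9, 27.9 and 29.7 FPKM in the knockdown libraries, against 27.4, 27.7 and 26.4 FPKM in the controls (log2 difference 0.10, SE 0.07; unadjusted p = 0.185 by limma). FKBP7, with the smallest p of the list, averaged 9.96 ± 0.90 and 10.95 ± 0.38 FPKM in those groups.

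PCOLCE, which enhances removal of the procollagen C-propeptide, was at 206.8, 229.8 and 212.9 FPKM in the knockdown libraries, against 253.0, 240.8 and 222.2 FPKM in the controls. Knockdown replicates 2 and 4 lay below all controls (log2 difference -0.14, SE 0.08; unadjusted p = 0.132 by limma, the smallest of its list). BMP1, the C-proteinase itself, averaged 10.7 ± 0.69 and 10.4 ± 0.62 FPKM. The processing list had 3 of 6 tested genes above 0 and a median of -0.04. Of 4 tested crosslinking genes 3 were above 0, with a median of 0.05. They included PXDN, the peroxidase that joins type IV collagen chains, at 13.5 ± 1.10 FPKM in knockdown and 12.9 ± 0.61 FPKM in control libraries, and LOXL3, a lysyl oxidase, at 12.2 ± 0.78 and 12.6 ± 0.41 FPKM. TGM2, a transglutaminase, stood at 2.67, 2.92 and 5.70 FPKM in knockdown replicates 2, 3 and 4, against 2.63, 2.78 and 3.12 FPKM in the controls, so knockdown replicate 4 alone lay far above the rest.

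Receptors for collagen were present, with 5 of 6 tested genes above 0 and a median of 0.07. ITGB1, the shared beta subunit of collagen-binding integrins, averaged 102.0 ± 16.6 FPKM in knockdown and 108.1 ± 9.70 FPKM in control libraries. ITGA1, its partner in a receptor that binds type IV collagen, averaged 31.7 ± 3.50 and 28.0 ± 1.66 FPKM and had the smallest p of its list (unadjusted p = 0.138 by limma). Of 6 tested breakdown genes 3 were above 0, with a median of -0.0057. MMP2, a gelatinase, averaged 69.7 ± 12.3 and 71.1 ± 14.2 FPKM, and its inhibitor TIMP2 64.6 ± 8.80 and 66.5 ± 0.80 FPKM. TIMP1, with the smallest p of that list, averaged 22.4 ± 3.26 FPKM in knockdown and 21.0 ± 4.23 FPKM in control libraries.

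Basement membrane partners of type IV collagen had 3 of 9 tested genes above 0, AGRN among them, with a median of -0.01. The laminin chain gene LAMB1 averaged 34.1 ± 5.14 FPKM in knockdown and 36.6 ± 6.07 FPKM in control libraries, and LAMC1 26.8 ± 4.64 and 26.8 ± 1.44 FPKM. AGRN, which encodes the heparan sulfate proteoglycan agrin, stood at 0.878, 0.366 and 22.9 FPKM in knockdown replicates 2, 3 and 4, against 0.247, 0.253 and 0.215 FPKM in the controls. All knockdown values lay above all controls, but by widely different amounts (log2 difference 1.67, SE 1.00; unadjusted p = 0.138 and adjusted p = 0.9998 by limma). AGRN passed the filter only through knockdown replicate 4, so these values describe it and are no test of a difference. Its position is chromosome 1, 1020123 to 1056118, plus strand, 5583 bases beyond the end of the interferon response gene ISG15, which stood at 48.6, 2.40 and 1622 FPKM in the knockdown libraries and at 0, 0.149 and 0 FPKM in the controls. The part of the interferon response in the AGRN, COL11A2 and COL5A1 values was not tested.

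**Figure D5:**
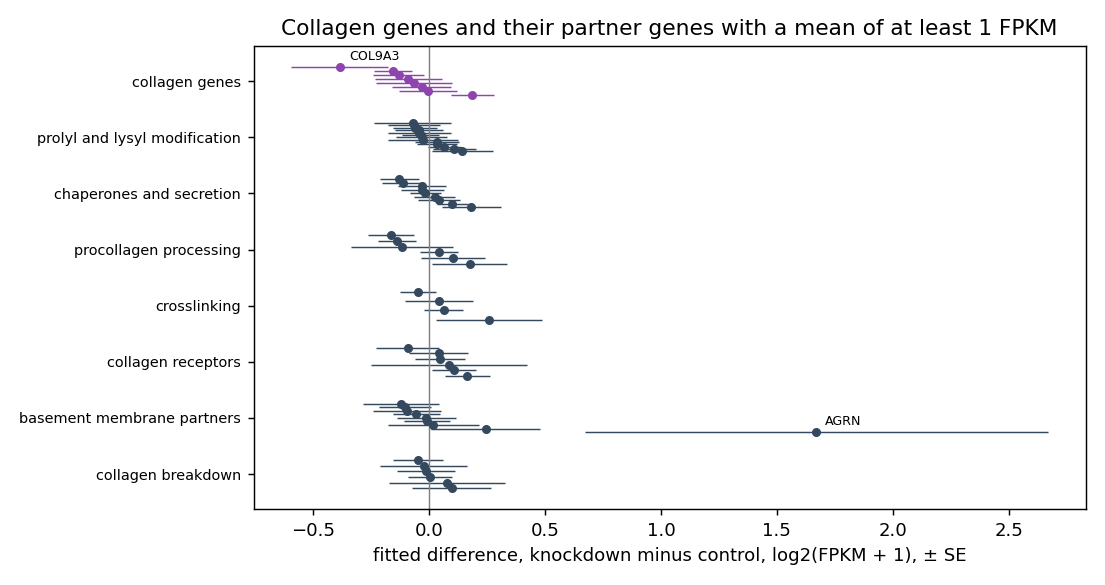
Fitted difference between GOMAFU knockdown and control on the log2(FPKM + 1) scale, with SE, for the 8 expressed collagen genes (purple) and the partner genes averaging 1 FPKM or more. Apart from COL9A3 (-0.39) and AGRN (1.67), all points lie within 0.26 of 0.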

How the data were processed

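The authors deposited 1 table of FPKM values with 1 column per library, and TopHat2, Cuffdiff and the hg38 build are named in the submitters' processing notes. Not given in the sources used here were versions, annotation, strand setting and filters. Tests for counts were not used on them. FPKM depends on what else is in a library, which ratios within it avoid. No read depth can be read off the table. From the steps among low FPKM, relative depths were 1.07, 1.36 and 1.06 for knockdown replicates 2, 3 and 4 and 1.10 and 0.972 for control replicates 2 and 4, relative to control replicate 3. Deposited FPKM summed to 579365 to 637153 per library.

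The 12164 genes averaging 1 FPKM or more were kept. On log2(FPKM + 1), knockdown minus control was tested two-sided by limma 3.58.1 (moderated variance with a trend on mean level) under R 4.3.3, with Benjamini-Hochberg adjustment over all kept genes. This scale understates the change of low genes. The fit was tested on simulated data. Genes named are the 8 collagens kept, the next 3 below the filter, and from each partner list the 2 with the highest mean and the 1 with the smallest p. Other collagens named, the chain ratios, the cell markers, TCFL5, SLC19A1, COL4A2-AS1, ADAMTS14 and ISG15 were chosen after their values were seen. The members and lists were chosen with earlier results of these data known. Alternatives were smaller pseudocounts, other filters, scaling, fits with library weights or a block, and libraries left out.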

Additional observations from a re-analysis of the deposited data

How the results depend on the processing

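No collagen or partner gene passed the threshold under any of the 16 alternatives, in either direction. The lowest adjusted p of a collagen gene by limma was 0.0879, for COL9A2 with library weights. At an unadjusted p under 0.05 the count was 0 of 8 collagen genes in the chosen fit, and 4 of 8 with library weights (COL4A1, COL6A1, COL6A2 and COL9A2), where 23.5% of all genes reached that level. It was 2 of 8 (COL6A1 and COL6A2) without knockdown replicate 4 and also without both libraries numbered 4, where 4.22% and 6.30% of all genes did, and 1 of 8 (COL4A1) without knockdown replicate 3, where 4.07% did. Collagen genes with no overlap between groups numbered 1 higher and 3 lower of 8 without both libraries numbered 4, where 16.9% and 19.4% of all genes were separated too. With 1 library left out they numbered 0 to 1 higher and 1 to 3 lower, against 6.25% to 11% and 6.52% to 11.7% of all genes. The log2 difference of COL4A2, -0.0054, was 0.019 under quantile normalization and ran from -0.12 to 0.074 with 1 library left out. Signs also turned with 1 library left out for COL22A1 (-0.20 to 0.074) and COL18A1 (-0.10 to 0.016). The difference of COL9A3, -0.39, ran from -0.53 to -0.20 with 1 library left out and was -0.10 with library weights. COL9A3, COL6A1, COL6A2, COL4A1 and COL9A2 kept their sign in every alternative that could be fitted. The difference in summed collagen FPKM, -4.90, ran from -20.3 without knockdown replicate 4 to 5.07 without control replicate 4. MIAT passed with library weights (log2 -1.58, adjusted p = 0.00299) and without both libraries numbered 4 (log2 -1.54, adjusted p = 0.0118), with adjusted p from 0.00299 to 1 over all alternatives. For these values the cause was not tested. Same-numbered libraries correlated at r = 0.09, 0.17 and 0.32 in their deviations from the group means, and knockdown replicate 4 alone matched its own number best, so a pairing was not established and was not shown to be absent. With the replicate block 0 collagen genes passed, and COL6A1 differed by -0.13 (unadjusted p = 0.0956 and adjusted p = 0.894 by limma). Splits higher and lower over all genes depended on scaling: groups without overlap numbered 488 higher and 529 lower as deposited, and 388 and 676 under quantile normalization. Low FPKM limit COL9A3, COL18A1 and the 36 genes below the filter.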
